A study of Mus musculus with 18 samples.

Results

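Hepatic stellate cells are the pericytes of the liver sinusoid. At rest they store vitamin A as retinyl esters, and on injury they can become contractile, matrix-producing myofibroblasts. A group of 10 genes used as markers of these cells was followed: Dcn, Lum, Lrat, Des, Reln and Hgf, which mark resting stellate cells or the lineage in general, and Acta2, Tagln, Pdgfrb and Lox, which rise when the cells are activated. The genes were chosen by symbol, with no threshold on their values but with earlier results of these data known. They are 10 of the 55487 genes in the table of counts. Several of them are not restricted to stellate cells: Dcn and Lum are also made by fibroblasts, and Acta2, Tagln and Des by vascular smooth muscle.

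Liver RNA was sequenced from 18 male C57BL/6J mice, 1 library for each mouse, in 3 groups of 6. The CON-GFP mice were fed a purified control diet and the FPC-GFP and FPC-LIPA mice a diet high in fat with added fructose, palmitate and cholesterol (FPC) for 16 weeks. Mice on the FPC diet were also given water with fructose and glucose, so the food and the water cannot be told apart. All mice were bought at 7 weeks of age and carried an AAV8 vector, given 1 week before the diets began, with the hepatocyte promoter TBG driving GFP or human LIPA, the gene of lysosomal acid lipase (LAL). The vector was therefore directed to hepatocytes, while the genes described here are mainly those of non-parenchymal cells. No sequenced group had LIPA on the control diet, and every sequenced control carried GFP. The study also kept mice with LIPA on the control diet, which were not among the groups sequenced. The replicates were separate mice. Reads of human LIPA and GFP were not analysed here. The values are whole-liver levels, in which fewer cells of a type and less RNA per cell cannot be told apart.

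Libraries held from 16632146 to 37739301 counts. FPC-LIPA 37, whose title adds the letter b to the mouse number, had the fewest. CON-GFP 2 and FPC-GFP 20 came next, with 17741598 and 17813507 counts. Labels of the libraries carry sample sheet numbers, which run from 55 to 68 except in FPC-LIPA 37, CON-GFP 1, CON-GFP 2 and FPC-GFP 20. The number of FPC-LIPA 37 was far above all others. The part of depth and of these labels in the levels was not tested. Levels are given as CPM, counts relative to library size, scaled by TMM over the 18 libraries, and levels of different genes are compared as RPKM, which divides CPM by the exon length in kb. A gene was said to pass, and to rise or fall, at an adjusted p under 0.05 in edgeR's quasi-likelihood test with Benjamini-Hochberg adjustment over all genes tested, and was called differentially expressed (DE) with a fold change of at least 2 as well. Log2 fold changes are followed by their standard error (SE). Libraries FPC-LIPA 36, 37 and 39 stood apart from the others in their ribosomal protein share. Ribosomal protein genes took 6.48% to 8.15% of their counts, against 1.44% to 2.95% in the other 15 libraries. Hepatocyte markers, with albumin (Alb) the highest, summed to 51401 to 103535 CPM over all 18 libraries. In FPC-LIPA 36, 37 and 39 genes of low GC content were high relative to genes of high GC content, by 0.408 to 1.38 on the log2 scale, against -0.599 to 0.600 in the other libraries. On this measure they did not stand clear, as CON-GFP 2 was at 0.600, above FPC-LIPA 39 at 0.408. Calls of members in FPC-LIPA, and counts over lists of genes in FPC-LIPA against FPC-GFP, are therefore given with and without these libraries.

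Acta2 encodes smooth muscle alpha-actin, the classical mark of an activated stellate cell, and is known to be switched on through CArG boxes, the sites of serum response factor. The stretches of 30 bases around each such box in the 250 bases before the RefSeq start of the members are shown here because they differ between members. Boxes were searched as a CArG-like box of 10 letters with at most 1 G or C in its core, a pattern that finds the same places from either strand, and the box is in capitals. Windows were at hand for 5 of the 10 members (RefSeq, GRCm38.p6). Acta2 held boxes beginning 84 and 34 bases before the start, Lrat held 1 box beginning 223 bases before it, and Des, Hgf and Reln held no match. Of 32851 windows of all genes, 8.59% held at least 1 such box and 0.670% held at least 2. In the GENCODE M21 annotation Acta2 reaches to 34255590, so both of its boxes lie inside the bounds of the annotated gene.
Acta2, first box, chr19:34255438-34255467, minus strand: gtgctgaggtCCCTATATGGttgtgttaga
Acta2, second box, chr19:34255388-34255417, minus strand: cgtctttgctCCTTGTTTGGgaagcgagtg
Lrat, chr3:82904178-82904207, minus strand: cttctcaccgCCAAGAAAGGtgctccattc
These are matches of letters only, and the windows of Dcn, Lum, Tagln, Pdgfrb and Lox were not used here.

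All 10 members were detected. Dcn had the highest level per length in each group, with 24.2 ± 4.34 RPKM in CON-GFP, 23.8 ± 2.84 in FPC-GFP and 43.8 ± 27.3 in FPC-LIPA (SD, n = 6 mice each). Tagln followed with 4.26, 8.21 and 10.4 RPKM, and Lrat with 3.47, 3.81 and 7.12 RPKM. Tagln and Lrat overlapped in every group, while Dcn stood clear of Tagln in CON-GFP and FPC-LIPA. Lox was lowest in each group, at 0.0543, 0.0585 and 0.219 RPKM. Lum, Reln, Acta2, Pdgfrb, Des and Hgf lay between these, from 0.525 to 5.06 RPKM, and most neighbours in the order overlapped. The order of the middle genes changed with the group: Acta2 was the sixth gene in CON-GFP, the fourth in FPC-GFP and the sixth again in FPC-LIPA.

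**Figure D1:**
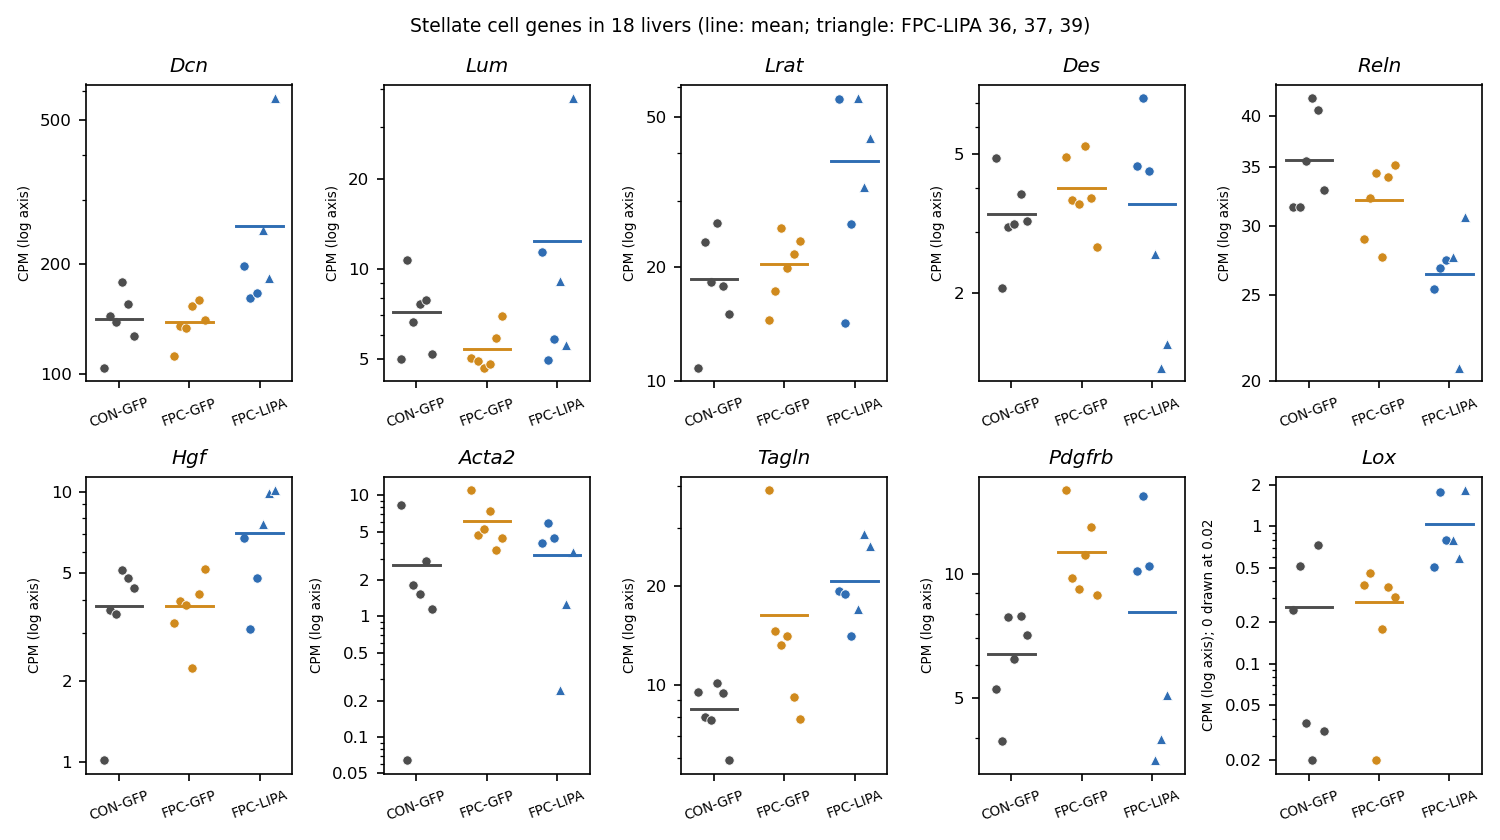
Level of each member in CPM (vertical log axis, its own scale per gene) in each of the 18 libraries by group, with group means as lines and FPC-LIPA 36, 37 and 39 as triangles; a CPM of 0 is drawn at 0.02 in the Lox panel. FPC-GFP lies above CON-GFP in all 6 libraries for Pdgfrb alone, and within FPC-LIPA the triangles lie below the circles for Des, Acta2 and Pdgfrb and above them for Hgf.

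The FPC-GFP and CON-GFP mice were compared to ask what the FPC diet did. Pdgfrb and Tagln, both markers of activation, rose, while none of the 6 quiescent or general members passed. That is 2 of the 9 members tested, where 23.8% of the 14307 genes tested passed and 12.9% passed and were higher. Lox had too few counts to be tested. The median log2 fold change was 0.93 over the 3 tested activated members and -0.02 over the 6 others, against 0.01 over all genes tested. In this comparison the tested genes under 45% GC had a median of -0.21, with 5.36% higher and 15.6% lower. Genes with at least 49% GC had a median of 0.13, with 17.4% higher and 8.40% lower. Acta2, Tagln, Pdgfrb, Des and Reln are in the second class, and Dcn, Lum, Lrat and Hgf in the first. With each library's trend on GC content removed 1 member passed, Pdgfrb. The part of GC content in this contrast was not tested. None of the members was DE, where 7.2% of tested genes were and 4.76% of tested genes were DE and higher.

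Pdgfrb (ENSMUSG00000024620, GRCm38 chromosome 18, 61045150 to 61085061) encodes the beta receptor for platelet-derived growth factor, which drives stellate cell proliferation. Its level was 3.93, 6.66 and 7.92 CPM in CON-GFP (lowest, median and highest library) and 8.87, 10.5 and 16.0 CPM in FPC-GFP. All FPC-GFP libraries were above every CON-GFP library, a separation seen in 6.19% of tested genes in that direction and in 4.41% in the other. Its log2 fold change was 0.81 (SE 0.19), and edgeR's quasi-likelihood test gave an adjusted p of 0.00692. It passed under 22 of 23 alternatives, and failed in one fit of all 18 libraries (adjusted p = 0.0975 by the same test).

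Tagln (ENSMUSG00000032085, chromosome 9, 45929619 to 45936058) encodes transgelin, an actin-binding protein of contractile cells. It was at 5.93, 8.71 and 10.1 CPM in CON-GFP and at 7.89, 13.7 and 38.9 CPM in FPC-GFP. The groups overlapped, with 4 FPC-GFP libraries above all CON-GFP libraries, and FPC-GFP 11 was far above the rest. With a log2 fold change of 0.93, SE 0.31, it passed narrowly (adjusted p = 0.0417, edgeR quasi-likelihood test). It passed under 9 of 23 alternatives. Without FPC-GFP 11 the log2 fold change was 0.47 (adjusted p = 0.0782).

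Acta2 (ENSMUSG00000035783, chromosome 19, 34241090 to 34255590) was at 0.0645, 1.68 and 8.39 CPM in CON-GFP and at 3.54, 4.99 and 11.0 CPM in FPC-GFP. The 5 lower CON-GFP libraries, up to 2.86 CPM, were all below every FPC-GFP library, and CON-GFP 1 was higher than 5 of the 6 FPC-GFP libraries. Its log2 fold change, 1.18 (SE 0.55, interval 0.10 to 2.26), did not pass (adjusted p = 0.131, edgeR quasi-likelihood test). Without CON-GFP 1 it was 1.97 with an adjusted p of 0.0104. With each library left out in turn it ran from 0.93 to 1.97, with adjusted p from 0.0104 to 0.253 by the same test. In libraries whose labels carry sample sheet numbers from 55 to 68, which leave out CON-GFP 1, CON-GFP 2 and FPC-GFP 20, it was 1.78 with an adjusted p of 0.00823. In these same libraries Pdgfrb passed at 0.69 (adjusted p = 0.0214) and Tagln did not at 1.10 (adjusted p = 0.0621, edgeR quasi-likelihood test in each case). In the remaining libraries, Acta2 was at 8.39 and 0.0645 CPM in CON-GFP 1 and 2 and at 4.46 CPM in FPC-GFP 20, which were not tested alone. Reads of actin genes can be shared between paralogs, and the handling of such reads is not given in the sources used here.

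Of the members of the resting or general class, Dcn and Lum, small leucine-rich proteoglycans that bind collagen fibrils, differed on the log2 scale by -0.03 (SE 0.13) and by -0.42 (SE 0.19). Dcn was at 104, 142 and 178 CPM in CON-GFP and at 112, 138 and 159 CPM in FPC-GFP, so the groups lay over each other. Lum was at 5.01, 7.16 and 10.7 CPM in CON-GFP and at 4.67, 4.996 and 6.97 CPM in FPC-GFP, with 3 FPC-GFP libraries below all CON-GFP libraries (adjusted p = 0.111, edgeR quasi-likelihood test). Lrat, the enzyme that esterifies retinol for storage, spread over 10.8 to 26.2 CPM in CON-GFP, and the FPC-GFP libraries lay inside that range at 14.5 to 25.3 CPM. For Lrat the interval of the log2 fold change ran from -0.25 to 0.50. Des, the intermediate filament desmin, had an interval from -0.18 to 0.64, Reln, a secreted glycoprotein, one from -0.37 to 0.05, and Hgf, hepatocyte growth factor, one from -0.60 to 0.56.

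**Figure D2:**
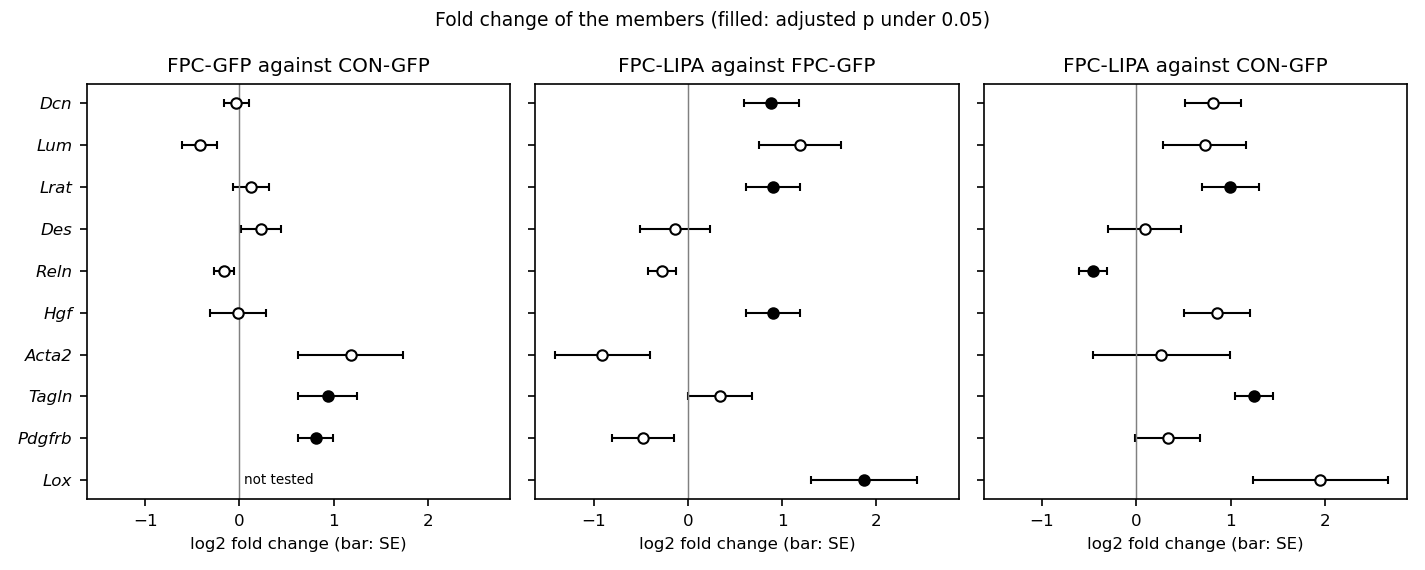
Log2 fold change of each member (horizontal axis, bars are SE) in the 3 comparisons, each of 6 against 6 libraries, with filled points where the adjusted p was under 0.05. Pdgfrb and Tagln are filled for the diet, Dcn, Lrat, Hgf and Lox for LIPA, and Lrat, Reln and Tagln for FPC-LIPA against CON-GFP.

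Other genes of the same pathways were read from lists. Of 18 other contractile and myofibroblast genes, 14 were tested between FPC-GFP and CON-GFP, 8 rose and none fell, with a median log2 fold change of 0.61. Thbs1, thrombospondin 1, rose by 1.64 (SE 0.40). Timp1, the tropomyosins Tpm1 and Tpm2, the calponin Cnn2 and vimentin (Vim) were among the others. Of 12 enzymes of collagen processing and cross-linking, the step at which Lox acts, 11 were tested, 6 rose and Bmp1, a procollagen protease, fell by 0.80 (SE 0.15). The lysyl oxidase relatives Loxl1 and Loxl2 rose by 1.21 (SE 0.33) and 1.08 (SE 0.20), and the others that rose, Plod3, P4ha1, P4ha2 and Tgm2, are hydroxylases and a transglutaminase. Among 6 PDGF ligands and receptors other than Pdgfrb, Pdgfb and Pdgfa, ligands of the receptor family, rose by 0.71 (SE 0.22) and 0.67 (SE 0.19). Pdgfra did not pass. The count of that list was 0 with the GC trend removed and 1 with sample sheet numbers from 55 to 68.

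The lists around the resting genes were read in the same way. Of 18 other genes listed for resting stellate cells, all tested, 2 rose and none fell, with a median of 0.00. These were Nes, the intermediate filament nestin, by 0.99 (SE 0.22), and Ngfr, the low-affinity neurotrophin receptor, by 0.92 (SE 0.22). Neither is restricted to resting cells, so their rise is not read here as a change of resting cells. In vitamin A handling 2 of 12 tested genes rose and 2 fell, and none passed with sample sheet numbers from 55 to 68. Cyp26a1, which breaks down retinoic acid, rose by 1.87 (SE 0.45) and Pnpla3, a lipase with retinyl ester activity, by 1.61 (SE 0.45), while Rbp4, the retinol carrier of plasma made by hepatocytes, fell by 0.47 (SE 0.13). Of the small leucine-rich proteoglycans related to Dcn and Lum, Prelp rose by 0.60 (SE 0.17) and Omd, osteomodulin, fell by 2.13 (SE 0.41). In the HGF list Met, the receptor of Hgf, fell by 0.53 (SE 0.17) and Hgfac, a protease that activates Hgf, by 0.61 (SE 0.14), while the plasminogen activator Plau rose by 0.90 (SE 0.28). Vldlr, a receptor of reelin with other ligands, rose by 1.18 (SE 0.36). Each of these passed at the adjusted p threshold of edgeR's quasi-likelihood test. With sample sheet numbers from 55 to 68 the count that passed went from 2 to 1 in the proteoglycan list and from 4 to 2 in the HGF list. It went from 1 to 0 in the list of reelin receptors and from 2 to 3 in the other resting genes.

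Markers of other cell types moved too. Of 6 vascular smooth muscle markers, 4 were tested with the diet and none passed, with a median log2 fold change of 0.605. Their summed level ran from 3.55 to 14.4 CPM (CON-GFP), from 9.14 to 17.3 CPM (FPC-GFP) and from 2.83 to 15.8 CPM (FPC-LIPA). None of the 6 was at 0 in a group. Myh11, smooth muscle myosin, and Smtn, smoothelin, were the most abundant of them. All 6 Kupffer cell markers, 3 of 6 endothelial markers and 3 of 7 monocyte and leukocyte markers rose with the diet. Kupffer cell markers summed to 103 to 215 CPM without the diet (CON-GFP) and to 305 to 513 CPM with it (FPC-GFP). Of 6 hepatocyte markers, Tat, tyrosine aminotransferase, and Cyp2e1, a cytochrome P450, fell, and none of the 4 tested cholangiocyte markers passed. With sample sheet numbers from 55 to 68 the counts were 0 for hepatocyte, 6 for Kupffer cell, 2 for endothelial and 2 for monocyte and leukocyte markers. The part of other cell types in the levels of the members was not tested.

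The FPC-LIPA and FPC-GFP mice were compared to ask what LIPA did on the FPC diet. Dcn, Lrat, Hgf and Lox rose, which are 3 of the 6 quiescent or general members and 1 of the 4 activated members, and none fell. That is 4 of 10, where 21.2% of the 14620 genes tested passed and 14.4% passed and were higher, and 6.87% passed and were lower. The median log2 fold change was 0.89 over the quiescent or general members and -0.07 over the activated members, against 0.04 over all genes tested. Without FPC-LIPA 36, 37 and 39, none of the 10 members passed, where 186 of all genes did. The FPC-GFP libraries are also those of the diet comparison, so the comparisons are not independent.

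Lox (ENSMUSG00000024529, chromosome 18, 52516067 to 52529867) encodes lysyl oxidase, which cross-links collagen. It was at 0, 0.334 and 0.455 CPM in FPC-GFP and at 0.504, 0.789 and 1.83 CPM in FPC-LIPA, which is 0 to 15 counts against 13 to 72. The groups did not overlap, as in 3.81% of tested genes in that direction and in 3.77% in the other. It was the only DE member, where 11.4% of tested genes were DE and 10.3% were DE and higher. On the log2 scale Lox rose by 1.87, with an SE of 0.56 and an adjusted p of 0.0326 in edgeR's quasi-likelihood test. Without FPC-LIPA 36, 37 and 39 the change was again 1.87, with an adjusted p of 0.139.

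Dcn (ENSMUSG00000019929, chromosome 10, 97479609 to 97518143) was at 112, 138 and 159 CPM in FPC-GFP and at 162, 191 and 575 CPM in FPC-LIPA. The groups did not overlap, as in 3.81% of tested genes in that direction, and FPC-LIPA 37 was far above the others. Dcn rose by 0.88 on the log2 scale (SE 0.29, adjusted p = 0.0449 by edgeR's quasi-likelihood test). The value was 0.46 without FPC-LIPA 37 (adjusted p = 0.0749) and 0.35 without FPC-LIPA 36, 37 and 39 (adjusted p = 0.220).

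Lum (ENSMUSG00000036446), a neighbour of Dcn on chromosome 10 at 97565128 to 97572703, was at 4.67, 4.996 and 6.97 CPM in FPC-GFP and at 4.98, 7.46 and 37.5 CPM in FPC-LIPA. FPC-LIPA 37 was again the highest, and 3 of the FPC-LIPA libraries were above all FPC-GFP libraries. Its log2 fold change of 1.19 (SE 0.44) did not pass (adjusted p = 0.0605, edgeR quasi-likelihood test). Without FPC-LIPA 37 it was 0.45, and without FPC-LIPA 36, 37 and 39 it was 0.47. By the DESeq2 Wald test its adjusted p was 0.0237.

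Lrat (ENSMUSG00000028003, chromosome 3, 82892579 to 82903973) was at 14.5, 20.8 and 25.3 CPM in FPC-GFP and at 14.2, 38.2 and 56.04 CPM in FPC-LIPA. Of the FPC-LIPA libraries 5 were above all FPC-GFP libraries and FPC-LIPA 33 was below them all. Lrat rose by 0.91 on the log2 scale (SE 0.29, adjusted p = 0.0387 by edgeR's quasi-likelihood test). Of the other resting stellate cell genes, 17 were tested in this comparison, 3 rose and none fell, with a median of -0.07. Among those that rose were Rgs5, a pericyte gene, by 0.98 (SE 0.21), and Colec10, a collectin, by 0.69. None of the list passed without FPC-LIPA 36, 37 and 39 or with sample sheet numbers from 55 to 68.

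Hgf (ENSMUSG00000028864, chromosome 5, 16553495 to 16620152) was at 2.23, 3.89 and 5.18 CPM in FPC-GFP and at 3.11, 7.17 and 10.2 CPM in FPC-LIPA, with 4 libraries above all of FPC-GFP. Hgf rose by 0.90 on the log2 scale (SE 0.29, adjusted p = 0.0400 by edgeR's quasi-likelihood test). Without FPC-LIPA 36, 37 and 39, Lrat was at 0.66 (adjusted p = 0.294) and Hgf at 0.38 (adjusted p = 0.495) by the same test. Of the 10 tested genes of HGF activation and its receptor, 1 passed, and the median was -0.15. That gene, Plau, rose by 1.25 (SE 0.25), without overlap between the groups, as in 3.81% of tested genes in that direction. The activating proteases Hgfac and Hpn did not pass, at -0.59 and -0.64. The count of that list was 1 without FPC-LIPA 36, 37 and 39 and 0 with sample sheet numbers from 55 to 68.

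The remaining members did not pass. Des (ENSMUSG00000026208, chromosome 1, 75360329 to 75368579) was at 2.72, 3.73 and 5.30 CPM in FPC-GFP and spread from 1.22 to 7.25 CPM in FPC-LIPA, with 1 library above and 3 below all FPC-GFP libraries. Pdgfrb was at 3.53, 7.61 and 15.4 CPM and Acta2 at 0.243, 3.74 and 5.90 CPM in FPC-LIPA. Each of these 3 genes had the 3 lowest FPC-LIPA libraries in FPC-LIPA 36, 37 and 39, and the others lay within or above the FPC-GFP range: Des at 1.22 to 2.59 CPM against 4.47 to 7.25 CPM, Pdgfrb at 3.53 to 5.08 CPM against 10.1 to 15.4 CPM, and Acta2 at 0.243 to 3.41 CPM against 4.06 to 5.90 CPM. Log2 fold changes were -0.13 (SE 0.37) for Des, -0.47 (SE 0.33) for Pdgfrb and -0.91 (SE 0.51) for Acta2. Without these 3 libraries they were 0.46, 0.09 and -0.32, so that Des and Pdgfrb changed sign, while Tagln was at 0.10 and Reln at -0.26. Tagln was at 14.1 to 28.7 CPM in FPC-LIPA, at 0.34 on the log2 scale (SE 0.34), and passed only without FPC-GFP 11 among the alternatives (0.80, adjusted p = 0.0478, edgeR quasi-likelihood test). Reln (ENSMUSG00000042453, chromosome 5, 21884454 to 22344702) was at 20.7, 27.1 and 30.7 CPM in FPC-LIPA and at 27.7, 33.2 and 35.2 CPM in FPC-GFP, with 5 of 6 FPC-LIPA libraries below all of FPC-GFP (-0.28, SE 0.15).

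The members divided by GC content in this comparison. Dcn, Hgf, Lum, Lrat and Lox have transcripts of 40.1% to 43.3% GC and log2 fold changes from 0.88 to 1.87, while Reln, Acta2, Tagln, Des and Pdgfrb have at least 49.4% GC and log2 fold changes from -0.91 to 0.34. The same held over all genes: of 3346 tested genes under 45% GC, 26.0% were higher and 1.43% lower in FPC-LIPA, with a median of 0.49, and of 7986 genes with at least 49% GC, 9.27% were higher and 9.72% lower, with a median of -0.19. When each library's trend on GC content was removed, none of the members passed, and the log2 fold changes of Dcn, Lrat, Hgf and Lox were 0.18, 0.41, 0.29 and 1.57, with adjusted p of 0.471, 0.188, 0.283 and 0.0590 (edgeR quasi-likelihood test). In libraries with sample sheet numbers from 55 to 68, which leave out FPC-GFP 20 and FPC-LIPA 37, they were 0.46, 0.89, 0.87 and 1.69, with adjusted p of 0.118, 0.106, 0.0967 and 0.109. The part of GC content and of the ribosomal protein share in the result was not tested.

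**Figure D3:**
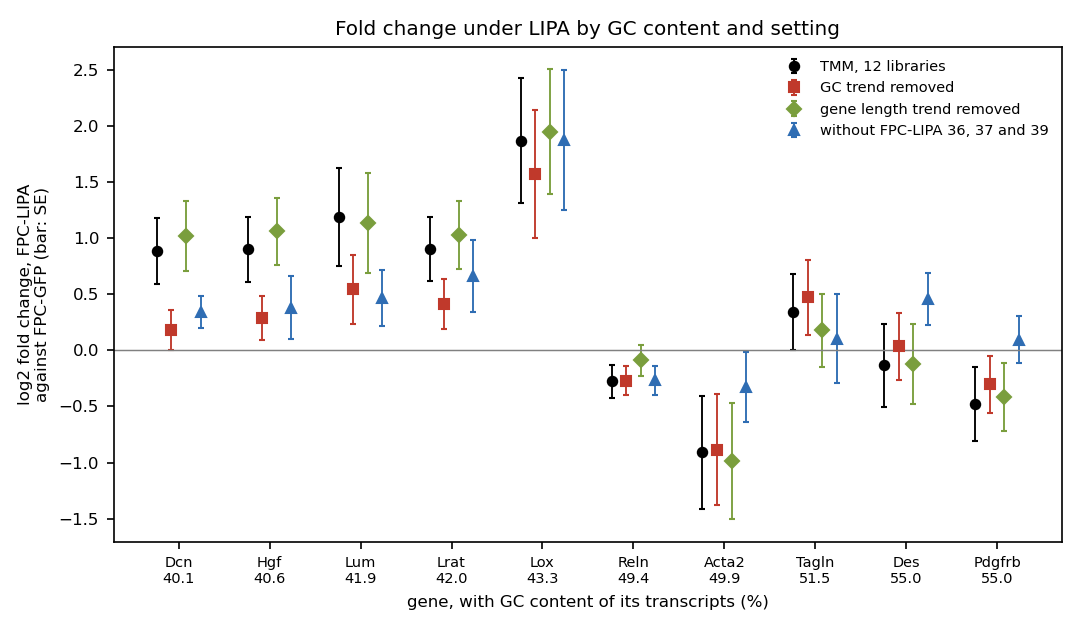
Log2 fold change of each member in FPC-LIPA against FPC-GFP (vertical axis, bars are SE), with genes ordered by the GC content of their transcripts in percent, for all 12 libraries scaled by TMM, after removal of the GC trend, after removal of the gene length trend, and without FPC-LIPA 36, 37 and 39. The 5 genes of lowest GC content have positive values in every setting drawn, and Dcn falls from 0.88 to 0.18 when the GC trend is removed while Lox stays between 1.57 and 1.95.

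In the other contractile and myofibroblast genes, 15 were tested in this comparison, 6 rose and 1 fell. Ccn2, connective tissue growth factor, rose by 1.67 (SE 0.35) and Sparc, a collagen-binding matrix protein, by 1.14 (SE 0.17), from 77.4 to 170 CPM. Fn1, fibronectin, most of which is made by hepatocytes in liver, fell by 0.91 (SE 0.22), from 775 to 412 CPM. The count was 7 in all and 1 without FPC-LIPA 36, 37 and 39. In the cross-linking enzymes none of the 11 tested genes rose and Plod1, a lysyl hydroxylase, fell by 0.53 (SE 0.18). Of the PDGF list 1 of 6 tested genes rose, Pdgfd, a ligand of the Pdgfrb receptor, by 1.03 (SE 0.35), and of the small leucine-rich proteoglycans 1 of 7, Omd, by 1.86 (SE 0.52). None of either list passed with the GC trend removed, with sample sheet numbers from 55 to 68, or without FPC-LIPA 36, 37 and 39, and neither did any cross-linking enzyme in the last of these.

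Of 8 portal fibroblast markers, 7 were tested in the LIPA comparison and 2 rose; their summed level was 18.5 to 28.2 CPM in FPC-GFP and 21.96 to 40.5 CPM in FPC-LIPA. Of 5 mesothelial markers, 3 were tested and 2 rose, with sums of 1.77 to 3.43 CPM and 2.43 to 17.04 CPM. FPC-LIPA 31 and FPC-LIPA 37 had the highest sums of both lists, and of the 6 FPC-LIPA libraries the same pair had the highest Lum. Dpt and Fbln2 were the most abundant portal fibroblast markers, and Upk3b and Gpm6a the most abundant mesothelial ones, and none of the genes of either list was at 0 in a group. Kupffer cell markers summed to 414 to 860 CPM in FPC-LIPA and 3 of 6 rose, and monocyte and leukocyte markers to 31.7 to 100.2 CPM and 4 of 7 rose. Without FPC-LIPA 36, 37 and 39 the counts that passed were 0 for portal fibroblast, 3 for mesothelial, 2 for Kupffer cell and 1 for monocyte and leukocyte markers. With sample sheet numbers from 55 to 68 they were 1, 0, 0 and 0. The part of these cell types in the levels of Dcn, Lum, Lrat, Hgf and Lox was not tested.

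FPC-LIPA and CON-GFP differ in both diet and vector, which cannot be told apart in this comparison. Tagln and Lrat rose and Reln fell, 3 of the 10 members, where 22.9% of the 14433 genes tested passed, 14.7% higher and 8.2% lower. Tagln was at 5.93, 8.71 and 10.1 CPM in CON-GFP and at 14.1, 19.0 and 28.7 CPM in FPC-LIPA. All FPC-LIPA libraries were above all CON-GFP libraries, as in 6.26% of tested genes in that direction. Tagln rose by 1.25 on the log2 scale (SE 0.20), with an adjusted p of 0.000712 in edgeR's quasi-likelihood test, and was the only DE member, where 15.1% of tested genes were DE and 11.8% were DE and higher. It passed under all 24 alternatives run, with log2 fold changes from 1.04 to 1.33, and was 1.04 without FPC-LIPA 36, 37 and 39.

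Reln was at 31.5, 34.2 and 42.0 CPM in CON-GFP, and every FPC-LIPA library was below all of them, as in 4.84% of tested genes in that direction. Reln changed by -0.46 on the log2 scale (SE 0.15, adjusted p = 0.0363 by edgeR's quasi-likelihood test), and by -0.42 without FPC-LIPA 36, 37 and 39 (adjusted p = 0.0564). Reln has the most exon bases of the members, 23738 over all its annotated exons. Once trends on this length were taken out the change was -0.22 with an adjusted p of 0.272 by the same test. Lrat was at 10.8, 18.0 and 26.2 CPM in CON-GFP, with 4 FPC-LIPA libraries above them all, and it rose by 1.00 on the log2 scale (SE 0.30, adjusted p = 0.0276 by edgeR's quasi-likelihood test). It was at 0.79 without FPC-LIPA 36, 37 and 39 (adjusted p = 0.148). Dcn at 0.81 (SE 0.29), Hgf at 0.85 (SE 0.35) and Lox at 1.95 (SE 0.72) had adjusted p of 0.0555, 0.0860 and 0.0604 and did not pass. Pdgfrb, with 0.33 (SE 0.35), passed without FPC-LIPA 36, 37 and 39 at 0.91 (adjusted p = 0.0152, edgeR quasi-likelihood test).

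Tagln and Acta2 did not keep a fixed ratio. In FPC-GFP there were 1.77 to 3.53 Tagln reads per Acta2 read, and in FPC-LIPA 31, 33 and 34 there were 3.14 to 4.73. FPC-LIPA 36 had 557 Tagln reads and 8 Acta2 reads, a ratio of 69.6, FPC-LIPA 39 a ratio of 22.7 and FPC-LIPA 37 a ratio of 7.72. CON-GFP 2 had 124 Tagln reads and 1 Acta2 read, while the other CON-GFP libraries had ratios from 1.14 to 6.59. In CON-GFP 2 and FPC-LIPA 36 the Acta2 level was the lowest of the group and the Tagln level, at 7.99 and 16.9 CPM, lay inside the range of the other libraries of the group. FPC-LIPA 37 and 39 had the highest Tagln levels of their group, 26.4 and 28.7 CPM, and the lowest Acta2 levels after FPC-LIPA 36. The summed smooth muscle markers were lowest in CON-GFP 2 within CON-GFP, at 3.55 CPM, and in FPC-LIPA 36, 37 and 39 within FPC-LIPA, at 2.83, 5.08 and 6.73 CPM. Their part in the ratio was not tested.

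**Figure D4:**
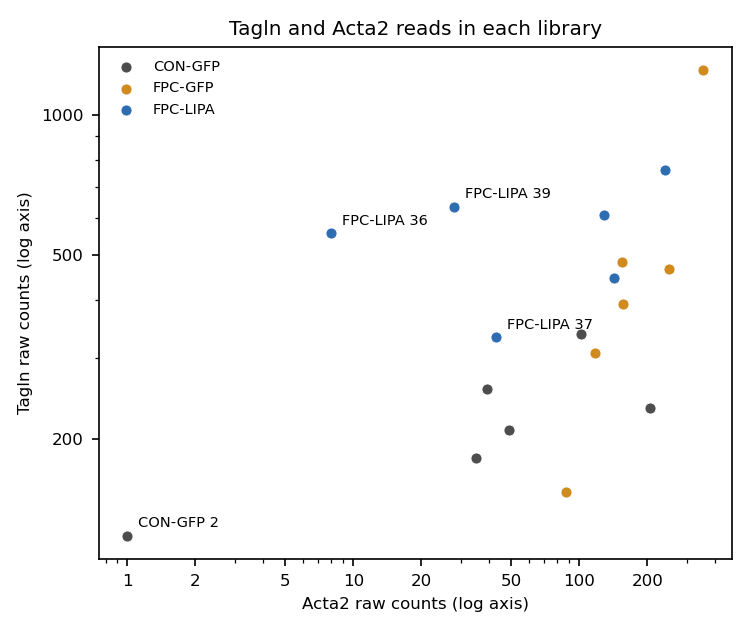
Raw Tagln counts against raw Acta2 counts in each of the 18 libraries (both axes log), colored by group, with names on libraries with more than 7 Tagln reads per Acta2 read. The named libraries, CON-GFP 2 and FPC-LIPA 36, 37 and 39, lie to the left of the others of their groups, with 1, 8, 43 and 28 Acta2 reads.

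The members were then compared with each other across the 18 libraries, after each group's mean was taken from log2 CPM. Of the 45 pairs, 26 had a positive r, 1 passed on r and 7 on rho. Des and Hgf passed on both, with Pearson r = -0.72 (permutation p = 0.000650, adjusted p = 0.0292 over 45 pairs, two-sided permutation within groups) and Spearman rho = -0.72 (permutation p = 0.00618, adjusted p = 0.0437), and r was -0.63 without the 2 libraries farthest from the median of Des. Dcn and Lum had r = 0.89 (permutation p = 0.00240, adjusted p = 0.0540) and rho = 0.74 (permutation p = 0.00219, adjusted p = 0.0437), and r fell to 0.63 without the 2 farthest libraries. Des and Pdgfrb had r = 0.79 (permutation p = 0.00659, adjusted p = 0.0593) and rho = 0.83 (permutation p = 0.00461, adjusted p = 0.0437). Des and Acta2 had r = 0.57 (permutation p = 0.0208, adjusted p = 0.156) and rho = 0.77 (permutation p = 0.000660, adjusted p = 0.0297).

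The libraries FPC-LIPA 36, 37 and 39 bear on these relations. Over the 15 other libraries Des and Acta2 had r = 0.80 (permutation p = 0.000180, adjusted p = 0.00810) and rho = 0.71 (permutation p = 0.00251, adjusted p = 0.0565), Dcn and Lrat had r = 0.73 (permutation p = 0.000890, adjusted p = 0.02002) and rho = 0.79 (permutation p = 0.00240, adjusted p = 0.0565), and Des and Hgf did not pass (r = -0.68, permutation p = 0.0189, adjusted p = 0.115). Des with Acta2 and Dcn with Lrat were the 2 pairs that passed on r there, and 0 pairs passed on rho. The levels also followed the library's difference between genes of low and high GC content: r with that measure was 0.77 for Dcn, 0.79 for Lum, 0.68 for Lrat, -0.77 for Des and -0.80 for Pdgfrb over 18 libraries, given as a description. Tagln, at 0.09, Lox, at 0.14, and Reln, at 0.20, were the members whose values lay nearest 0.

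**Figure D5:**
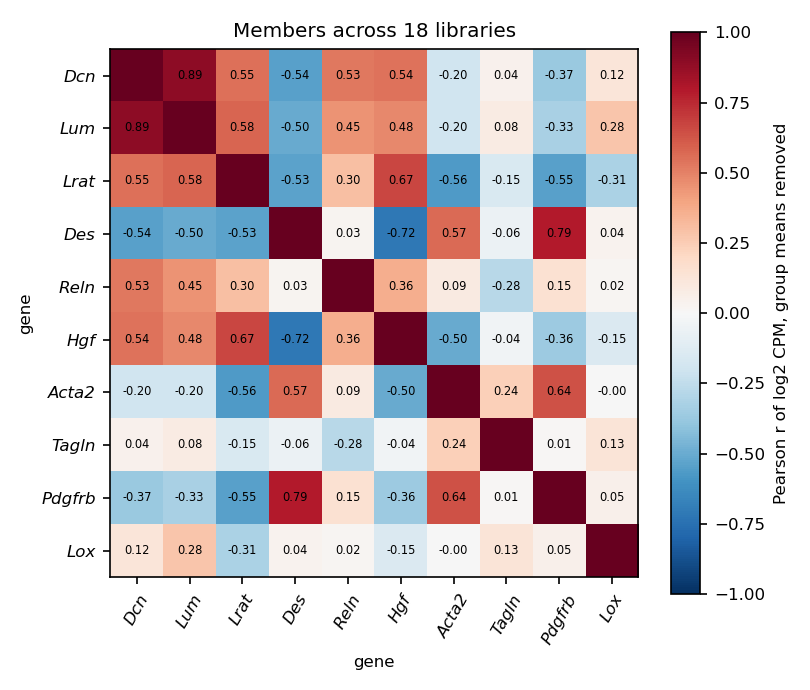
Pearson r between members over 18 libraries, from log2 CPM with group means removed (color scale from -1 to 1, values printed in the cells). Dcn, Lum, Lrat and Hgf are positive with each other, from 0.48 to 0.89, Des, Acta2 and Pdgfrb are positive with each other, from 0.57 to 0.79, and every pair between these blocks is negative.

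The genes most like each member were sought by the same r among 12740 genes whose mean reached 1 CPM, as a description over 18 libraries that share group means and the library differences above. The nearest to Dcn were Lhfp (0.95), Col3a1 (0.94), a fibrillar collagen gene, and Zeb2 (0.93). Those of Acta2 were Myh11 (0.93), the smooth muscle myosin named above, Ddr1 (0.91), a collagen receptor, and Wdr55 (0.83). Those of Lrat were Kctd12b (0.90), Rgs5 (0.87) and Dmac2l (0.87), and those of Reln were Frmd4a (0.85), Abcc9 (0.83), a potassium channel subunit of pericytes, and Colec10 (0.82), a collectin of the resting list. Lum was nearest to Map4k3 (0.95), Zfp62 (0.94) and Adamts5 (0.94), Des to Zdhhc12 (0.94), Prkaca (0.93) and Dcps (0.92), and Pdgfrb to Sptan1 (0.95), Ehbp1l1 (0.94) and Kctd10 (0.94). Hgf was nearest to Atad2 (0.89), Cd200r1 (0.85) and Glipr1 (0.82), Tagln to Tmem62, Rab26os and Serpina3m (0.79 each), and Lox to Sdr9c7 (0.79) and Adal (0.72). GC content was alike in some of these sets: the genes nearest Des and Pdgfrb had 51.7% to 59.5% GC and those nearest Lum, Lrat and Hgf had 38.8% to 44.9% GC.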

How the data were processed

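Total liver RNA was made into Illumina libraries and sequenced as paired reads. The study's methods name both a TruSeq RNA kit and a stranded mRNA kit, and which library was made with which is not given in the sources used here. Reads were trimmed (Trimmomatic 0.33), aligned to GRCm38 (HISAT2 2.1.0) and summed per gene (Subread) by the authors, who deposited raw read counts without normalization. The strand setting and the handling of reads with several positions are not given in the sources used here, so overlapping and antisense genes are uncertain. The table holds 55487 genes, 18 columns were matched to mice by group and mouse number, and 5 columns that matched no sample were not used. Exon lengths, GC content and coordinates came from GENCODE M21 (GRCm38), for 55227, 55141 and 55227 genes. The exon length of a gene counts each base of any of its annotated exons once, so it can exceed the length of a single transcript.

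Each comparison was a separate fit of 12 libraries with group as its single term. Genes passing filterByExpr in edgeR 4.0.16 (R 4.3.3) were scaled by TMM and tested with the quasi-likelihood test, which was checked on simulated data. The SE is the size of the log2 fold change divided by the square root of F, and intervals are 1.96 SE on each side (95%). Log2 CPM used a prior count of 2. Pairs of members were tested with 100000 permutations within groups. Alternatives were scaling by library size alone, by upper quartiles or by DESeq2 size factors, the DESeq2 1.42.0 Wald test, a robust fit, no filter or 1 CPM in 6 libraries, 1 fit of 18 libraries, sample sheet numbers from 55 to 68, length and GC trends removed (lowess, span 0.3), an adjusted p under 0.01, a fold change of at least 2, a prior count of 0.5, FPC-LIPA 36, 37 and 39 left out, and each library left out in turn. The pairs without these 3 libraries were chosen after seeing the data. A count of 0 was read as allowing up to 3, which covers counting error only. Depth was 16632146 to 37739301 counts. Named list genes are those that passed with the 2 largest rises and falls and a mean of at least 1 CPM. A few genes that this rule or the search for like genes names are not reported here. Timp1, Tpm1, Tpm2, Cnn2, Vim, Plod3, P4ha1, P4ha2, Tgm2, Colec10, Hgfac and Hpn were named beside them after their values were seen, and so was Pdgfra. The members and lists were chosen with earlier results of these data known. Python 3.11.15, numpy 2.4.6, pandas 2.3.3, scipy 1.17.1 and matplotlib 3.10.9 made the tables and plots.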

Additional observations from a re-analysis of the deposited data

Results flagged for a closer look

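Of 30 sets of 6 libraries (10 genes in 3 groups), 3 held a library whose distance from its nearest neighbour on the log2 scale was large against the range of the group by Dixon's 95% limit of 0.625. Chance flags about 1 in 20 sets. Dcn in FPC-LIPA 37 was the highest of its group at 574.9 CPM, with the others at 162 to 248.9 CPM and a ratio of gap to range of 0.660. Hgf in CON-GFP 1 was the lowest at 1.02 CPM, from 25 counts, with the others at 3.54 to 5.16 CPM and a ratio of 0.764. Lox in FPC-GFP 13 was at 0 CPM, with the others at 0.181 to 0.455 CPM and a ratio of 0.632, and a count of 0 allows up to 3 counts. The log2 fold change of Dcn for LIPA without FPC-LIPA 37 is given above.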

How the results depend on the processing

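No paired analysis was possible because the groups share no mouse numbers. The diet count of members that passed was 2, and was 1 in the robust fit, with the GC trend removed and at an adjusted p under 0.01, 0 in the fit of 18 libraries and with the 2-fold limit, and 1 to 2 with each library left out. The LIPA count was 4, and was 0 with library size alone, with sample sheet numbers from 55 to 68, with the GC trend removed, without FPC-LIPA 36, 37 and 39, and at an adjusted p under 0.01, 1 without a filter and with the 2-fold limit, and 0 to 5 with each library left out. Leaving out any one of FPC-GFP 12, 16, 19 and 20 and FPC-LIPA 36, 37 and 39 gave 0, and leaving out FPC-GFP 11 or 13 gave 1. The count in FPC-LIPA against CON-GFP was 3, and was 5 by the DESeq2 Wald test, 6 in the fit of 18 libraries, 1 at an adjusted p under 0.01 and with the 2-fold limit, and 1 to 5 with each library left out. Of 45 pairs 1 passed, also with a prior count of 0.5, and 2 passed without FPC-LIPA 36, 37 and 39. The cause of these shifts was not tested.

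In the diet comparison the median over all genes was 0.01 with TMM and 0.21 with library size alone. Signs changed only for values whose interval included 0. With the diet, Dcn, Reln and Hgf became 0.16, 0.0274 and 0.16 with library size alone, Dcn and Hgf became 0.21 and 0.19 with the GC trend removed, and with each library left out Dcn ran from -0.11 to 0.0410 and Hgf from -0.21 to 0.10. For LIPA, Des became 0.0353 with the GC trend removed and 0.46 without FPC-LIPA 36, 37 and 39, and ran from -0.46 to 0.0401 with each library left out, and Pdgfrb became 0.0938 without the 3 libraries. In FPC-LIPA against CON-GFP, Des ran from -0.25 to 0.26 and Acta2 from -0.0228 to 1.06 with each library left out. Of 207, 239 and 239 other values of the members' log2 fold changes, 178, 173 and 200 kept their direction and side of the threshold. Of 1232 counts of list genes, 241 moved by over 1.5 times. Depth limits Lox most, with 0 to 72 counts.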
